A study of Homo sapiens with 12 samples.

Results

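The genes described here are 132 long non-coding RNAs (lncRNAs) of HCT116 cells whose level was lower in every doxorubicin library than in any control library. They were chosen by that measured order. A gene had to be typed lincRNA, antisense or processed transcript in GENCODE v29, to have a mean of 1 to 5000 TPM (a transcript's share of all RNA, corrected for gene length) over 12 libraries, and to have a highest TPM with doxorubicin below its lowest TPM in control medium. SNHG genes and 10 other named lncRNAs were left out, and 6 of the excluded genes met the numeric rule (GAS5, MALAT1, NEAT1, SNHG5, SNHG6 and ZFAS1). The 132 were 14.4% of the 919 lncRNAs in that range and came from a table of 16676 genes. For comparison, 157 lncRNAs (17.1%) were higher in every doxorubicin library and 630 overlapped between the media. Over all listed genes in the same range, 16.5% were lower in every doxorubicin library, and over protein-coding genes also 16.5%. The difference between media is therefore the criterion and not a finding, and it is given below without a test.

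HCT116 is a human colorectal carcinoma line that keeps functional p53, and doxorubicin is a DNA intercalator that poisons topoisomerase II. Each of 3 kinds of HCT116 cell, wild type (WT), knockout of SPARCLE (KO) and over-expression of SPARCLE (OE), was grown for 48 h without the drug (control) or with 1 µM doxorubicin. Each of the 6 groups had 2 biological replicates, named a and b. SPARCLE is itself a lncRNA that p53 induces. Whether the KO and OE lines are single clones is not given in the sources used here.

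Long non-coding RNAs are made by RNA polymerase II, are often spliced and capped like messenger RNAs, and carry no long conserved reading frame. Many start close to a protein-coding gene and run away from it on the other strand (divergent), or lie across such a gene on the other strand (antisense). Many are short-lived because the nuclear exosome and its adaptor complexes degrade them, and some are host transcripts from which microRNAs or small nucleolar RNAs are cut.

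Reads recovered from the TPM steps came to 12600449 to 18572325 in the control libraries and 24894511 to 30693084 in the doxorubicin libraries, so that depth moved with the treatment, and its part in the results was not tested. Small RNA genes held 64.5 to 75.3% of all TPM. SPARCLE had at most 4 reads in any WT or KO library and 384 to 622 reads in the OE libraries, so WT and KO cannot be told apart by it. The epithelial markers EPCAM (90.2 to 163 TPM), CDH1, KRT8, KRT18, KRT19 and CLDN4 were present in all 12 libraries. The table lists no row for the blood cell markers PTPRC, CD3E and LYZ. VWF of endothelium stayed at 0.128 to 0.373 TPM, and COL1A1, a collagen chain of fibroblasts, was at 1.04 to 6.19 TPM in the 12 libraries. The deposited values hold no row for the fibroblast markers COL1A2, DCN and PDGFRB or the endothelial markers PECAM1 and CDH5. In bulk samples, fewer cells that make an RNA and less of it per cell cannot be told apart.

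The promoters of 5 of the lncRNAs are shown because the results below turn on these genes or on their neighbours. RefSeq (GRCh38.p14) gave a start within 2 kb of the GENCODE start for 43 of the 132. Each window runs from 250 bases before the start to 50 bases after it, 5′ to 3′ on the lncRNA's strand. In LINC00659 the capitals mark a TATA box (TATAAA) and GC boxes (GGGCGG on either strand). In the others they mark the CHR element (TTTGAA, known from cell cycle promoters) and the CCAAT box (CCAAT), on either strand. The windows are chr20:62776807-62777106 (minus) for LINC00659, chr1:43358624-43358923 (minus) for CDC20-DT (listed as AL139289.2), chr13:52455297-52455596 (minus) for CKAP2-DT (AL359513.1), chr14:21206851-21207150 (minus) for LINC00641 and chr2:88627579-88627878 (plus) for EIF2AK3-DT (AC062029.1).
LINC00659: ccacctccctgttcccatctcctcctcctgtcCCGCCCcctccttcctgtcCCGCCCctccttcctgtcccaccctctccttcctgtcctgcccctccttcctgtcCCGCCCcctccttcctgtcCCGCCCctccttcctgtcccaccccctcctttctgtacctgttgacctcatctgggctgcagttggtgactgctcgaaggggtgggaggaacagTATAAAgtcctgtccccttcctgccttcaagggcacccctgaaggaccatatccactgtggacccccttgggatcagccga
CDC20-DT: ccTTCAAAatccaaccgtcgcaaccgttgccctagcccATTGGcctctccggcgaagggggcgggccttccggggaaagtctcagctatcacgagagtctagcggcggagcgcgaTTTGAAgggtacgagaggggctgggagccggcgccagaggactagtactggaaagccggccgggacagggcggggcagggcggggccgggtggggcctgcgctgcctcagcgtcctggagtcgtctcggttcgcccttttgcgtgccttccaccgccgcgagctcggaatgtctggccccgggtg
CKAP2-DT: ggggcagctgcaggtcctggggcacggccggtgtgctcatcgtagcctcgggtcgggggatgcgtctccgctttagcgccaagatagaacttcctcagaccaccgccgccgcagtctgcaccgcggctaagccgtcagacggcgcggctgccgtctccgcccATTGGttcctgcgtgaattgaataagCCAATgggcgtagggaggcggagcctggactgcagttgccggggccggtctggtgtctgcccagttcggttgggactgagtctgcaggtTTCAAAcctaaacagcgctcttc
LINC00641: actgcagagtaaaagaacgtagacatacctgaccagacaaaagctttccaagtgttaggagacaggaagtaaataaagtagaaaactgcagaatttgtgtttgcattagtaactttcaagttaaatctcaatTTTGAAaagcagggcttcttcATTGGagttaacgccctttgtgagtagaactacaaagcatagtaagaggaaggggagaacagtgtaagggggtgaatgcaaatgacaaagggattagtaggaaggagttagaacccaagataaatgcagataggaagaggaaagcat
EIF2AK3-DT: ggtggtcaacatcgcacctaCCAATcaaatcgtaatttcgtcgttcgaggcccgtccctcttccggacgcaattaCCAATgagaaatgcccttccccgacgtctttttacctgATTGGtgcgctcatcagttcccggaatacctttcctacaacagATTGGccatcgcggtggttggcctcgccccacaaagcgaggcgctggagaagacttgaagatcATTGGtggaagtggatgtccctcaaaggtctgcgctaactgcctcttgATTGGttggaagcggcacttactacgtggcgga

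On the log2(TPM + 1) scale LINC00659 had the largest mean difference. It lies on the minus strand at chr20:62774128-62775412 (hg38, GENCODE v29: antisense type, 2 exons, ENSG00000228705). Its levels in control medium were 68.1 and 33.4 TPM in WT, 123 and 49.8 TPM in KO, and 81.5 and 59.3 TPM in OE. With doxorubicin they were 3.52 and 2.22 TPM in WT, 4.17 and 5.97 TPM in KO, and 4.51 and 3.14 TPM in OE. The lowest control library was 5.60 times the highest doxorubicin library, and the means of the 6 libraries differed 17.6-fold. In reads, the 6 control libraries held 2395 and the deeper doxorubicin libraries 247. In each kind of cell the control replicates stood further apart, in TPM, than the doxorubicin replicates, and no control library came near the doxorubicin range. The RefSeq start used for the promoter shown above lies 1444 bases from the GENCODE start, so that window lies outside the gene span just given. Counted from the RefSeq start, it holds a TATA box at position -31 and 4 GC boxes.

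AL357033.2 lies 38781 bases from LINC00659 on the same strand, at chr20:62732566-62735347 (antisense type, 2 exons). Control levels were 2.75 and 5.97 TPM in WT, 14.3 and 6.75 TPM in KO, and 10.0 and 4.42 TPM in OE. Doxorubicin levels were 0.536 and 0.0217 TPM in WT, 0.322 and 0.142 TPM in KO, and 0.452 and 0.387 TPM in OE. The fold between the means was 23.7, the largest of the 132, and rested on 330 control reads and 24 doxorubicin reads. WT doxorubicin replicate b had 0 reads, so the TPM printed for it is only the small offset the deposited values carry at 0 reads.

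Other genes of this stretch of chromosome 20 did not share a direction. NTSR1, the neurotensin receptor, which AL357033.2 crosses on the other strand, was at 1.08 to 9.31 TPM in control medium and 21.7 to 37.5 TPM with doxorubicin. It rose by 2.63 on the log2(TPM + 1) scale (SE 0.33, limma adjusted p = 2.99e-05). COL9A3, a collagen chain, rose by 1.33 (SE 0.29, limma adjusted p = 0.00169). MRGBP, a subunit of the NuA4 histone acetyltransferase complex, fell by 0.72 (SE 0.13, limma adjusted p = 0.000487), and OGFR, the opioid growth factor receptor, fell by 0.77 (SE 0.18, limma adjusted p = 0.00301). SLCO4A1, an organic anion transporter, differed by 0.07 (SE 0.19, limma adjusted p = 0.786). SLCO4A1-AS1, an antisense lncRNA on the minus strand, was too low for the rule, with means of 0.740 TPM (control) and 0.0778 TPM (doxorubicin). It fell by 0.58 (SE 0.18, limma adjusted p = 0.0140). Reads from AL357033.2 and NTSR1 can be told apart only if counting used the strand, which the sources used here do not state, but the measured levels of the pair went in opposite directions.

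**Figure D1:**
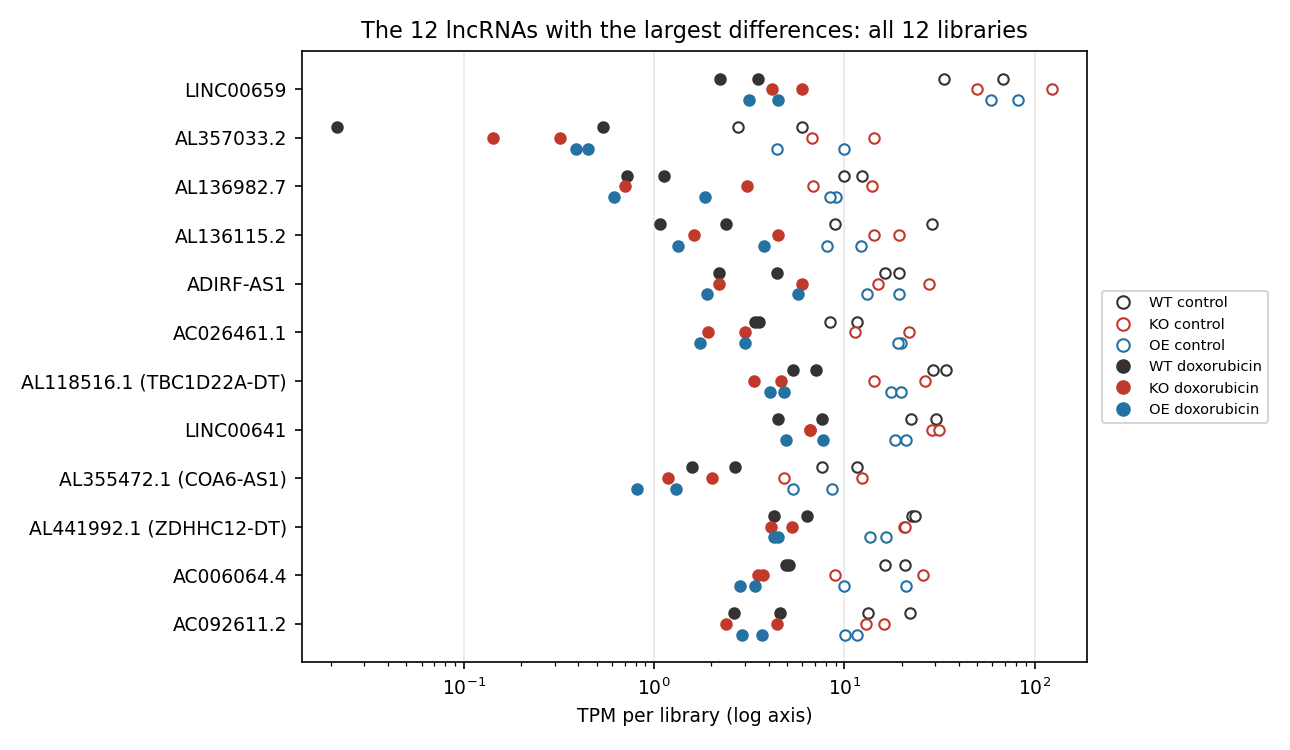
TPM in each of the 12 libraries (log axis) for the 12 lncRNAs with the largest mean difference of log2(TPM + 1). Open points are control and filled points doxorubicin libraries, in black for WT, red for KO and blue for OE; for every gene shown the filled points lie left of the open ones, widest apart for LINC00659 and AL357033.2.

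Large differences were also measured for AL136982.7 and ADIRF-AS1, which share 465 exon bases on the same strand of chromosome 10 and so are not independent measurements. AL136982.7 was at 6.82 to 14 TPM in control medium and 0.615 to 3.09 TPM with doxorubicin. ADIRF-AS1 ran from 13.2 through a median of 17.8 to 27.7 TPM in control medium and from 1.89 through 3.33 to 5.98 TPM with doxorubicin. AL136115.2, a lincRNA of chromosome 1 that overlaps PTP4A2 on its strand, ran from 8.16 through 13.3 to 29 TPM and from 1.08 through 2 to 4.49 TPM. The lowest control library was 2.21 times the highest doxorubicin library for ADIRF-AS1 and 1.82 times for AL136115.2. AC026461.1 overlaps the metallothionein gene MT1X on its strand and had control levels of 8.42 to 21.9 TPM and doxorubicin levels of 1.75 to 3.57 TPM. LINC00641, a processed transcript of chromosome 14, had 18.5 to 31.5 TPM in control medium and 4.50 to 7.72 TPM with doxorubicin, with 9447 and 4157 reads behind these levels. Its promoter, shown above, holds a CHR element at position -118 and a CCAAT box at -97.

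Divergent lncRNAs named for the gene they leave from were among the large differences too. TBC1D22A-DT (AL118516.1) was at 14.4 to 34.4 TPM in control medium and 3.35 to 7.06 TPM with doxorubicin. ZDHHC12-DT (AL441992.1) was at 13.7 to 23.6 and 4.12 to 6.38 TPM, and COA6-AS1 (AL355472.1) at 4.80 to 12.3 and 0.814 to 2.65 TPM. AC006064.4, antisense to the glycolytic gene GAPDH, was at 8.94 to 25.9 and 2.83 to 5.10 TPM, and AC092611.2 of chromosome 4 at 10.0 to 22.1 and 2.39 to 4.61 TPM. By fold of means alone, 7 lncRNAs passed 8-fold. The 5 besides LINC00659 and AL357033.2 had 97 to 648 reads over all libraries, and AC010207.1, for example, had 304 control reads and 30 doxorubicin reads.

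The most abundant of the 132 had the smallest difference. LRRC75A-AS1, called SNHG29 in newer naming and host of the small nucleolar RNAs SNORD49A, SNORD49B and SNORD65, was at 323 to 435 TPM in control medium and 220 to 321 TPM with doxorubicin, a 1.31-fold difference of means. It entered under its older name, since the rule leaves out SNHG genes by symbol. AC245014.3, a lincRNA of 1 exon on chromosome 1, was at 48.1 to 91.7 TPM and 27.9 to 36.6 TPM. AC090204.1 was at 27.1 to 42.0 and 18.6 to 26.3 TPM. MAPKAPK5-AS1 was at 21.8 to 32.9 and 9.40 to 15.4 TPM, and AC092139.1 at 20.5 to 31.8 and 9.61 to 13.5 TPM. These levels are per length and so can be set side by side between genes. AC092687.3, ZFPM2-AS1 and AC084346.2 (MIR378D2HG) completed the 12 most abundant, with control means of 17.6, 15.4 and 16.5 TPM and doxorubicin means of 6.55, 8.50 and 6.06 TPM.

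**Figure D2:**
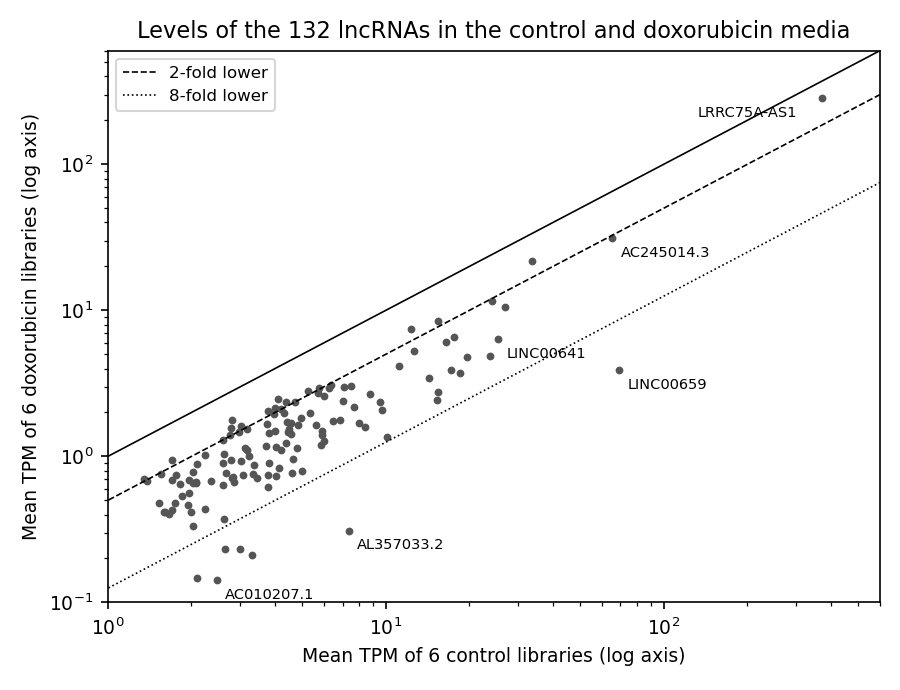
Mean TPM of the 6 control libraries (x, log axis) against the mean of the 6 doxorubicin libraries (y, log axis) for the 132 lncRNAs. The solid line marks equal levels, the dashed line a 2-fold and the dotted line an 8-fold lower mean; 114 genes lie at or below the dashed line and 7 at or below the dotted line.

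Most of the 132 were rare transcripts. The median of their control means was 4.01 TPM (range 1.35 to 373) and that of their doxorubicin means 1.32 TPM (range 0.141 to 284). The fold between the means had a median of 3.19, and 43 lncRNAs passed 4-fold. Control means were under 5 TPM in 86 lncRNAs and at least 10 TPM in 21. The median lncRNA had 573.5 reads over 12 libraries, and 12 had at most 3 reads in some library. Just inside the rule stood LRRC75A-AS1, AL356124.1 and AC132872.3, whose lowest control libraries were 1.006, 1.011 and 1.014 times their highest doxorubicin library. Just outside stood YTHDF3-AS1, AL035071.1 and PIK3CD-AS2, with ratios of 0.982, 0.970 and 0.968.

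Of a list of 135 symbols of characterised lncRNAs, 5 were among the 132 (CYTOR, DLEU2, HOTAIRM1, KCNQ1OT1 and MIR4435-2HG). Another 13 were higher in every doxorubicin library and 31 overlapped. The 5 were 10.2% of the 49 on that list that were in range, beside 14.4% of all 919. The other 86 had no row under that symbol (58) or fell outside the range or types (28). Of 21 symbols of p53-linked lncRNAs none was among the 132 and none was counted as higher. The rule fixed this in part: it leaves out by name 5 that are listed, and also TP53TG1, which is not listed. Of these 5, NEAT1 was lower in every doxorubicin library, PINCR, MIR34AHG and LINC-PINT were higher in every one and PVT1 overlapped. Of the other 16, 3 overlapped, 4 lay outside the range or types and 9, with TP53TG1 among them, had no row under that symbol. In both lists, symbols that name the same gene were not merged. A symbol without a row therefore does not show that the gene is absent, since it can be listed under another name. HOTAIRM1, known from myeloid differentiation, was at 4.26 to 9.52 TPM in control medium and 0.964 to 3.20 TPM with doxorubicin. KCNQ1OT1, the imprinted antisense RNA that silences genes of its domain from the paternal chromosome, was at 2.21 to 3.93 and 0.525 to 1.49 TPM. CYTOR (8.48 to 14 and 1.99 to 6.07 TPM) and MIR4435-2HG (3.41 to 6.07 and 0.869 to 2.45 TPM) are near-identical copies on chromosome 2, and how reads were split between them is uncertain.

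DLEU2 is the host of the microRNA genes MIR15A and MIR16-1, tumour suppressors lost in chronic lymphocytic leukaemia. It was at 3.13 to 5.40 TPM in control medium and 0.776 to 2.18 TPM with doxorubicin. The mature microRNAs are shown with their seed (bases 2 to 8) in capitals, because they share it and so share predicted targets.
miR-15a-5p: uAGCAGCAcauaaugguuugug
miR-16-5p: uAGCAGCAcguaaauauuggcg
In all, 7 of the 132 lncRNAs hold 9 microRNA genes and 4 hold 6 small nucleolar RNA genes. None of these 15 small RNAs has a row in the table, so their levels were not analysed here.

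Annotated gene structure is given as a description. The 132 comprised 67 lincRNAs (17.4% of those in range), 43 antisense genes (11.4%) and 22 processed transcripts (13.9%). A single exon was annotated for 44 of them (33.3%), against 26 of the 157 lncRNAs that were higher (16.6%) and 165 of the 630 that overlapped (26.2%). The median exon length was 1369 bases, against 1827 and 1412 bases. A protein-coding gene started within 2 kb on the other strand for 35 of the 132 (26.5%), for 38.2% of the higher and for 28.2% of the overlapping lncRNAs.

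The difference was present in each kind of cell, as the rule requires, and its size varied. The median difference of log2(TPM + 1) was -1.11 in WT, -1.16 in KO and -0.93 in OE, against medians over all genes tested of 0.17, -0.01 and 0.11. The largest of the 3 differences was in WT for 47 lncRNAs, in KO for 68 and in OE for 17. LINC00659 had -3.68 in WT, -3.72 in KO and -3.88 in OE, whereas AC026461.1 had -1.29 in WT, -2.30 in KO and -2.62 in OE. CKAP2-DT had -1.64 in WT, -0.64 in KO and -0.87 in OE. These orders rest on 2 libraries per group, and the tests of the difference between kinds of cell are given at the end.

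**Figure D3:**
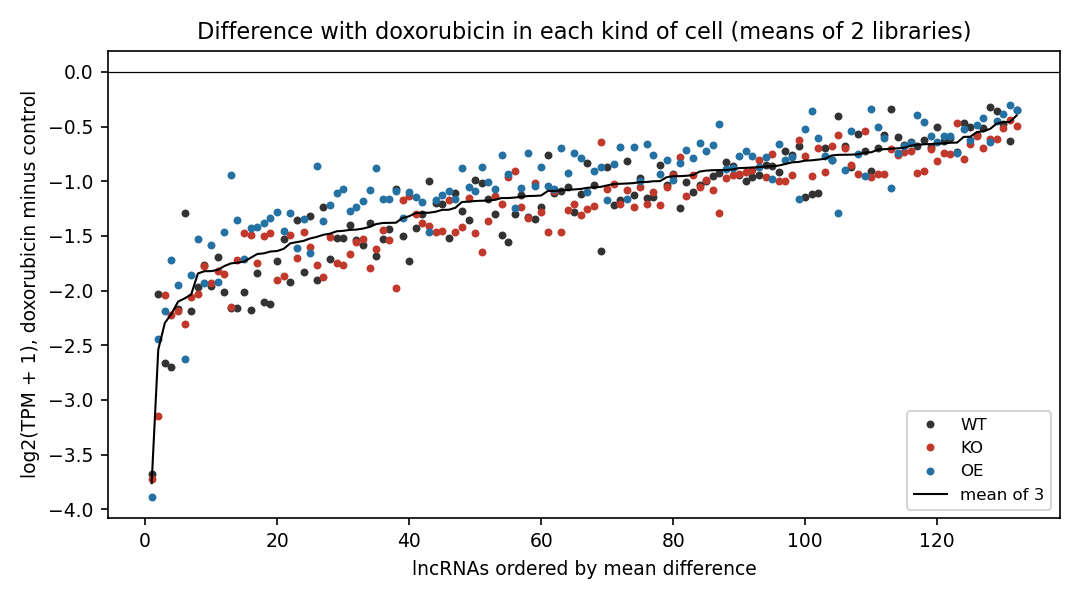
Difference of log2(TPM + 1), doxorubicin minus control, for the 132 lncRNAs ordered by their mean difference (x). Each point is the difference of means of 2 libraries in WT (black), KO (red) or OE (blue) and the line is their mean; the points lie below 0, and the OE point is the lowest of the 3 for 17 genes.

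Protein-coding partners were not used by the rule, so their response to doxorubicin was tested with limma. Over all 15256 genes tested, 25.9% were called lower and 32.2% higher (adjusted p under 0.05). Head to head here means a start on the other strand within 2 kb of the lncRNA start, whether or not the pair overlaps there. Of 32 tested genes that start head to head with 1 of the 132 lncRNAs, 15 fell (46.9%). Another 4 rose and 13 did not pass, and the median of the 32 was -0.38. Head-to-head partners of the 157 higher lncRNAs fell in 15 of 59 (25.4%) and rose in 26 (44.1%). Those of the overlapping lncRNAs fell in 41 of 166 (24.7%) and rose in 48 (28.9%). These shares were set side by side and not tested. With small RNA genes left out of the totals, 15 partners of the 132 fell (46.9%) and 7 rose (21.9%). Over all genes the shares were then 25.7% and 41%.

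The genes that fell included mitotic and replication factors. CDC20, the activator of the anaphase-promoting complex, was at 70.3 to 203 TPM in control medium and 2.23 to 6.05 TPM with doxorubicin, and fell by 4.72 (SE 0.26, limma adjusted p = 1.03e-07). Its divergent lncRNA CDC20-DT, whose start lies 297 bases away, was at 2.32 to 3.06 and 0.708 to 1.93 TPM, a smaller difference of -0.67. CKAP2, a mitotic spindle protein, was at 14.8 to 32.1 and 4.63 to 9.42 TPM and fell by 1.40 (SE 0.15, limma adjusted p = 8.30e-06). CKAP2-DT was at 1.31 to 5.04 and 0.428 to 0.818 TPM. POLE, the leading-strand DNA polymerase beside AC135586.2, fell by 0.65. In the promoter of CDC20-DT shown above, CHR letters start at -248 and -135 and CCAAT letters at -212. In that of CKAP2-DT, CCAAT letters start at -88 and -62, and the CHR letters stand after the start, at 27. The CHR share of the matched promoters, given further on, was near that of all promoters.

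Other head-to-head partners that fell have varied functions. EIF2AK3 encodes PERK, the kinase of the unfolded protein response. It was at 18.7 to 25 TPM in control medium and 6.49 to 12.3 TPM with doxorubicin and fell by 1.23 (SE 0.15, limma adjusted p = 3.22e-05), while EIF2AK3-DT was at 1.17 to 2.11 and 0.354 to 0.653 TPM. OSER1, an oxidative stress responsive gene, fell by 1.20 and its OSER1-DT was at 2.28 to 4.80 and 0.901 to 1.43 TPM. HNRNPD, an RNA-binding protein of AU-rich elements, fell by 0.98, and TPT1, the translationally controlled tumour protein, by 0.95. RAB33B, NAMPT, ARF4 and MYL12A fell by 0.94, 0.88, 0.73 and 0.71. The 3 smallest falls were 0.38 to 0.52, and 1 or more of these 3 genes lost the call when any of 8 libraries was left out (limma adjusted p 0.0503 to 0.1144).

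In 4 pairs the coding gene rose while the lncRNA was lower. AKAP1, a mitochondrial anchor of protein kinase A, went from 10.9 to 18.1 TPM in control medium up to 30.03 to 49.9 TPM with doxorubicin, a rise of 1.48 (SE 0.15, limma adjusted p = 6.38e-06). MAPKAPK5, a stress-activated kinase, rose by 1.04 (SE 0.19, limma adjusted p = 0.000435) beside MAPKAPK5-AS1. TBC1D22A rose by 0.88 and CETN3, a centrin, by 0.64.

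Of 33 tested genes crossed by 1 of the 132 lncRNAs on the other strand, 6 fell (18.2%) and 11 rose (33.3%), beside 25.9% and 32.2% of all genes. GAPDH was at 3567 to 6600 TPM in control medium and 1364 to 2183 TPM with doxorubicin and fell by 1.69 (SE 0.16, limma adjusted p = 3.74e-06), as AC006064.4 on its other strand was lower. RPA3, a subunit of the single-strand DNA binding complex, fell by 1.40 and is crossed by AC007161.3 (3.88 to 6.72 and 2.23 to 3.74 TPM). MSH5-SAPCD1, a readthrough gene, fell by 1.00 and is crossed by SAPCD1-AS1 (2.38 to 4.23 and 0.226 to 1.95 TPM). In contrast, HIF1A, the hypoxia-inducible transcription factor, rose by 0.86 (SE 0.17, limma adjusted p = 0.000901) across HIF1A-AS2, called HIF1A-AS3 in newer naming. ZSCAN16 rose by 1.25 and ADIRF by 0.57. Reads of a gene and its antisense partner are separate only if counting was stranded, and GAPDH had a control mean of 5390 TPM beside 17.2 TPM for AC006064.4. With median-ratio scaling 10 antisense partners fell (30.3%) and 12 rose (36.4%), beside 32.9% and 33.6% of all genes.

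Of 21 genes that overlap 1 of the 132 on the same strand, 14 fell (66.7%) and 4 rose (19%), beside 25.9% and 32.2% of all genes. For the 157 higher lncRNAs, 0 of 32 such genes fell and 27 rose (84.4%). For the lncRNAs whose levels overlapped between media, 23 of 164 fell (14%) and 60 rose (36.6%). MT1X, a metal-binding metallothionein, had 18.3 to 54.3 TPM in control medium and 3.33 to 7.04 TPM with doxorubicin and fell by 2.50 (SE 0.19, limma adjusted p = 6.99e-07), with AC026461.1 starting 46 bases from it. SASS6, a centriole assembly protein, fell by 1.43 and PTP4A2, a phosphatase, by 0.94. For overlapping genes on the same strand the counts cannot be told apart where exons or unspliced RNA are shared, so such a pair is not a pair of independent measurements.

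**Figure D4:**
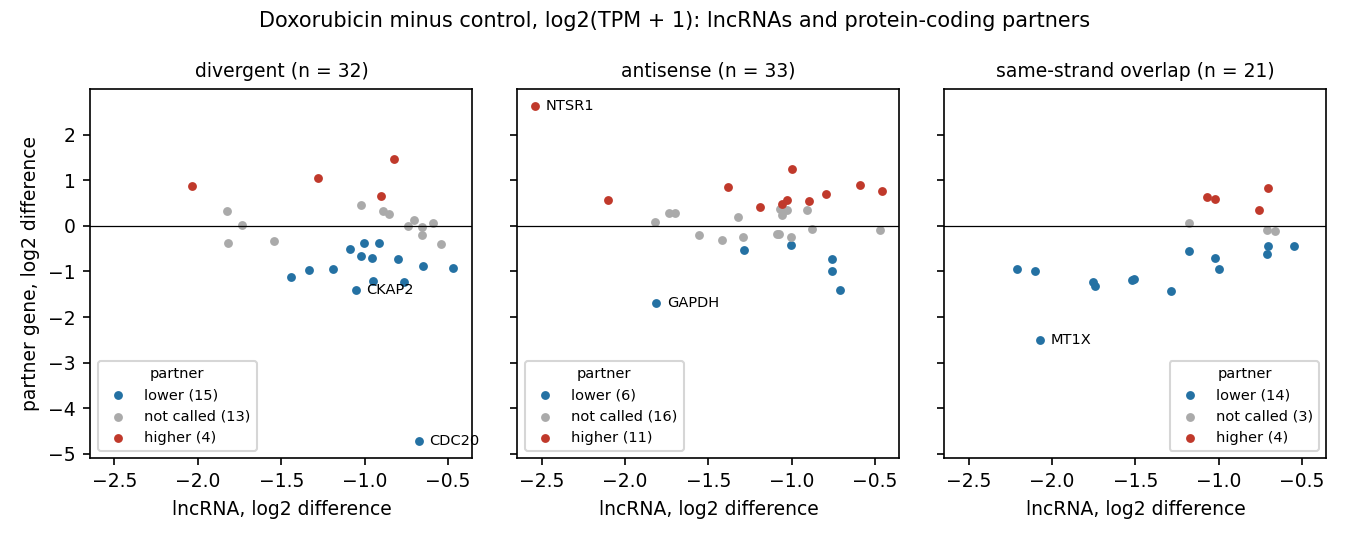
Difference of log2(TPM + 1), doxorubicin minus control, of the lncRNA (x) and of its protein-coding partner (y). The 3 panels hold head-to-head (titled divergent, pairs that overlap at their starts included), antisense and same-strand overlapping partners. Each point is 1 partner gene, blue where it fell, red where it rose and grey where it did not pass; 15 of 32, 6 of 33 and 14 of 21 points are blue.

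Lists of coding genes with a bearing on these RNAs were tested as well. Of 71 cell division genes, 68 fell and 0 rose (median -2.12), and of 53 DNA replication genes 38 fell and 4 rose (median -0.68). Over all genes 25.9% fell and 32.2% rose, with a median of 0.09. Of 35 RNA turnover genes (exosome, its adaptors and nonsense-mediated decay), 13 rose, 9 fell and 13 did not pass, with a median of 0.16. These counts lie near the 32.2% higher and 25.9% lower of all genes. With small RNA genes left out of the totals, 17 of them rose and 9 fell, beside 41% and 25.7% of all genes. Among those that rose were the exosome subunits EXOSC6 (1.43), EXOSC4 (1.24), EXOSC3 (1.06) and EXOSC5 (1.05) and the cap-binding protein NCBP1 (1.33). Among those that fell were the exosome subunit EXOSC9 (-0.97), ZFC3H1 of the adaptor for polyadenylated nuclear RNA (-0.64) and SRRT, which links the cap to that machinery (-0.63).

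In the 43 promoters matched, GC boxes (GGGCGG) were found in 33 (76.7%), against 44.9% of all 34796 RefSeq promoters. The GC box share was 65.8% in promoters of the higher and 57.6% in those of the overlapping lncRNAs. The CHR letters were found in 7 (16.3%, all promoters 15.2%), in CDC20-DT, CKAP2-DT, CYTOR, LINC00640, LINC00641, MAPKAPK5-AS1 and ZDHHC12-DT. For the higher and the overlapping lncRNAs the CHR share was 5.48% and 10.5%. CCAAT was found in 12 (27.9%, all promoters 34.6%) and up to 6 times in 1 window, that of EIF2AK3-DT. Its share was 32.9% for the higher and 43.8% for the overlapping lncRNAs. The E-box CACGTG was found in 5 (11.6%, all promoters 7.21%), any of 4 E2F forms (TTTCCCGC, TTTGGCGC, TTTGCCGC, TTTCGCGC) in 2 (4.65%, all promoters 3.31%), and TATAAA in 3 (6.98%, all promoters 11.6%). CRE (TGACGTCA) was found in 1 and CARE (TGATGNAA) in 2. Both strands were searched; palindromes were counted once, and E2F and GC box letters can overlap. A match is a description of these letters and not a site.

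Whether these lncRNAs differed between the kinds of cell was tested on differences the rule did not rank. However, a gene whose genotypes differed widely could hardly have met the rule. Since WT and KO cannot be told apart by SPARCLE reads, KO against WT does not compare measured SPARCLE levels. In the OE comparisons, effects of the line and of the SPARCLE level cannot be told apart. Over both media together, none of the 132 passed the threshold in the 3 comparisons of genotypes as deposited. In KO against WT, 0 of 132 were called, beside 0.846% of all genes tested. Before adjustment 5 passed limma's threshold of 0.05 upward and 5 downward (7.58% in all, beside 8.33% of all genes), the median difference was 0.02 (all genes 0.10) and the range -0.63 to 0.68. In OE against WT, 0 were called, beside 0.78% of all genes. Before adjustment 1 passed limma's threshold of 0.05 upward and 15 downward (12.1% in all, beside 8.96% of all genes), with a median of -0.15 (all genes -0.08). The smallest limma adjusted p was that of AC009812.4 (LINC02986), which differed by -0.73 (SE 0.17, limma adjusted p = 0.0896); with median-ratio scaling it was called lower (-0.69, limma adjusted p = 0.0388). In OE against KO, 0 were called, beside 0.00655% of all genes, with 0 upward and 7 downward at limma's unadjusted threshold of 0.05 (5.3%, beside 2.43% of all genes) and a median of -0.20 (all genes -0.19). Voom on recovered reads also called 0 in each.

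The doxorubicin difference itself was compared between kinds of cell by interaction terms. The rule used these differences and made each of them negative, so a gene with an absent or reversed response in any line could not enter. Only differences in size could be found, and the shares of the 132 and of all genes are not a like comparison. In KO against WT, 0 of 132 were called, beside 0.00655% of all genes, with 1 upward and 1 downward at limma's unadjusted threshold of 0.05 (1.52%, beside 1.27% of all genes) and a median of -0.06 (all genes -0.18). In OE against WT, 0 were called, beside 0.00655% of all genes, with 5 upward and 1 downward at limma's unadjusted threshold of 0.05 (4.55%, beside 0.983% of all genes) and a median of 0.18 (all genes -0.07); a positive value means a smaller difference with doxorubicin in OE. By both interaction terms voom on recovered reads called 0. A p that misses the threshold does not show that the kinds of cell were alike.

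**Figure D5:**
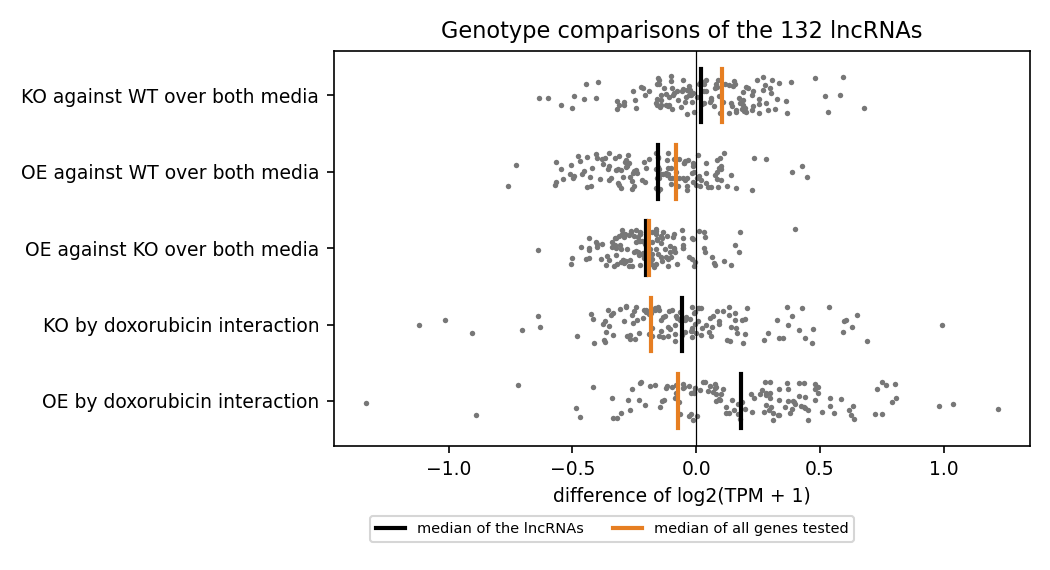
Differences of log2(TPM + 1) of the 132 lncRNAs (x, each grey point 1 lncRNA, spread vertically for display) in the 5 genotype comparisons. Black bars are medians of the lncRNAs and orange bars medians of all genes tested; in OE against WT they stand at -0.15 and -0.08, and no point passed the threshold.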

How the data were processed

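Strand-specific total RNA sequencing of 12 HCT116 libraries was deposited by the authors as log2 TPM per gene, per the file headers. Per the submitters' processing notes, reads on build hg38 went through tools that include edgeR 3.12.1 in R 3.3.3, featureCounts, SAMtools 1.7 and HISAT2 2.0.4; the order of steps, strand setting and annotation are not given in the sources used here. Groups were read from the sample titles.

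Values were returned to TPM, and genes were typed and placed with GENCODE v29. Low values lie on steps worth 1 read, and whole reads (within 0.05) were recovered for 91.6% of matched genes with the annotated exon length and for 124 of the 132 lncRNAs; for the other 8 the length was searched. Recovered reads were used for depth and for an alternative test with limma's voom.

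Differences were tested with limma 3.58.1 (R 4.3.3) on log2(TPM + 1), on 15256 genes with at least 1 TPM in at least 2 libraries, with 6 group means and Benjamini-Hochberg adjustment over all genes (threshold 0.05); a fold on this scale understates the change of low genes. All 132 lncRNAs passed this filter, which their selection favours. P-values measure the spread between 2 replicates per group. The same test was run on simulated counts for 14762 genes, for KO against WT. It recovered 90 of 100 genes changed 2-fold and 99 of 100 changed 4-fold, with 9 calls among unchanged genes. The simulated counts had a single fixed spread for all genes and no shifts between libraries besides depth. Only better-covered genes were changed. They therefore do not show how many changes the test would find among these mostly rare lncRNAs in the real libraries.

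The members, gene lists and tests were chosen with earlier results of these data known. Genes were named by rule: the 12 with the highest mean TPM, the 12 with the largest mean difference, any called (up to 8), 3 just inside and 3 just outside the criterion, those in the fixed lists, and those whose partner was among the 8 largest falls; other names were chosen after their values were seen. Some items that these rules name are not reported here. Alternatives were another pseudocount, filter or scaling, small RNA genes left out, a replicate block, voom, only the groups compared, a wider window for partners, and each library left out. Promoter and microRNA sequences came from RefSeq.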

Additional observations from a re-analysis of the deposited data

How the results depend on the processing

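The number of lncRNAs that met the rule was 132. It was 155 with median-ratio scaling (130 shared), 169 with small RNA genes left out of the totals (127 shared), 152 with a mean TPM from 0.5 (132 shared) and 26 with a mean TPM from 5 (26 shared). Leaving out each library in turn gave 125 to 147. The median difference of log2(TPM + 1) was -1.06; it was -1.59 with a pseudocount of 0.1 and -1.32 with small RNA genes left out. In the genotype tests the count of the 132 called stayed at 0 in all alternatives run except median-ratio scaling, where 1 was called in OE against WT. The counts over all genes moved more, from 129 to between 40 and 193 for KO against WT and from 119 to between 48 and 268 for OE against WT. Head-to-head and antisense partner genes that fell numbered 21, and 17 to 23 with each library left out, 29 with median-ratio scaling and 25 with voom. Over all genes, 3945 fell as deposited and 5021 with median-ratio scaling. The letters a and b did not deviate together in every pair of groups (correlations from -0.39 to 0.81). Among the 3 doxorubicin groups the correlations were 0.08 to 0.81, and replicate b had the higher small RNA share in each; whether these replicates share a batch was not tested. With a replicate block, 0 lncRNAs were called in each genotype test, 181 genes in all for KO against WT and 176 for OE against WT, and 22 of these partner genes fell. Depth limits the rarest: 12 lncRNAs had at most 3 reads in some library.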
